A study of Mus musculus with 8 samples.

Results

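The development of the control mouse trachea between embryonic days E11.5 and E13.5 was followed in 4 RNA sequencing libraries of dissected trachea, 2 from each stage. They are 4 of the 8 libraries of a study of tracheal gene expression after deletion of Wls, and were chosen as the libraries with a control genotype label at either stage. The control label names no allele, strain or litter, so it is not known which floxed or Cre alleles the control embryos carried. The other 4 libraries, 2 per stage, carry the genotype WlsShhCre and are called mutants here. As background, Wls carries Wnt proteins to the cell surface, and the Cre recombinase of such embryos is made from the Shh gene, whose embryonic expression includes the epithelium of the trachea. Nothing in the labels says whether the 2 libraries of a group came from separate embryos, pools or litters, so the tests measure the spread between these samples, which may be technical.

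During these days the trachea, already separated from the oesophagus, turns from an epithelial tube in loose mesenchyme into an organ with a supporting wall. Ventral and lateral mesenchyme condenses into the cartilage rings, dorsal mesenchyme forms the smooth muscle of the trachealis, and the remaining mesenchyme lays down the fibrous and elastic coat. The epithelium begins to set aside basal, secretory, ciliated and neuroendocrine cells. The blood in its vessels also changes: large nucleated red cells from the yolk sac, which make embryonic globins, are joined from the fetal liver by cells that make adult globins.

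The libraries held 10.96 and 11.9 M counts at E11.5 and 10.58 and 10.62 M at E13.5. Of 37282 named genes, 17930 had a count in both stages' tables, 1033 of these were left out because the gene length used in counting differed between the tables by over 0.1%, and 13763 of the remaining 16897 passed the filter on low counts. Levels are given in CPM, the count relative to a library of 1 M counts, scaled by factors between 0.979 and 1.02. Of 9477 genes at 10 CPM or more in either E11.5 control, 19 were at least 2-fold higher in replicate 1 and 4 in replicate 2; of 9839 such genes at E13.5, the numbers were 44 and 7, and 35 of the 44 had a fitted increase of at least 2-fold between the stages, to which the higher replicate itself contributes. Genes were called changed at an adjusted p under 0.05 in edgeR's quasi-likelihood test with Benjamini-Hochberg adjustment over all 13763 genes. The stages lie in separate deposited tables, so stage and any difference in counting or sequencing between the tables cannot be told apart. In whole organs, more cells of a type and more RNA per cell also cannot be told apart. The tissue label was checked against markers: every control library held transcripts of the lung and tracheal epithelial factor Nkx2-1 (52.2 to 73.5 CPM), of Epcam (64.0 to 136 CPM), of the cartilage factor Sox9 (117 to 163 CPM) and of the muscle actin gene Acta2 (149 to 432 CPM). Genes of the liver were near the limit of detection, with 0 and 0.858 CPM at E11.5 and 0.468 and 0.0936 CPM at E13.5 for albumin (Alb) and 0.461 and 1.8 CPM at E11.5 and 0.562 and 0.374 CPM at E13.5 for alpha-fetoprotein (Afp).

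Between E11.5 and E13.5, 5707 of 13763 genes (41.5%) changed in the controls, 2812 upwards (20.4%) and 2895 downwards (21%). Fewer genes were called in both directions when any 1 control library was left out. Large changes were mostly increases: 1387 genes (10.1%) changed at least 2-fold, of which 1136 rose (8.25%) and 251 fell (1.82%). The control libraries of the stages did not overlap for 10024 genes (72.8%), among them all 5707 called ones. Separate ranges, where given below for a called gene, therefore describe the values and add nothing to the call. The median log2 fold change over all genes was -0.0034. Counts of called genes in the lists below are to be read beside the shares over all genes, 20.4% higher and 21% lower. The genes that rose most belong to muscle, thyroid, connective tissue and nerve, and those that fell most were led by genes of red blood cells and of early embryonic programmes. Of the 15 largest decreases among genes with a mean of at least 5 CPM in the higher stage and separate libraries, Hbb-bh1, Hemgn, Hba-x, Rhd, Klf1, Spna1 and Kel are red cell genes. Also among them were Lin28a, Hand1, Gal, Mcoln3, Dkk1 and Grin2c, with log2 fold changes from -4.17 to -3.26.

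Fibrous connective tissue genes had the highest median change among the mesenchymal gene lists. Of 27 fibrous connective tissue genes tested, of 28 listed, 22 rose, 2 fell (Mkx and Pcolce, named here after their values were seen; 1 with any 1 control library left out) and 3 did not pass the test, and 19 of the increases were at least 2-fold. Their median log2 fold change was 1.80, against -0.0034 over all genes, and their summed level was 7362 and 7002 CPM at E11.5 and 19055 and 19794 CPM at E13.5. Col1a1, the main chain of fibrillar type I collagen, was at 1477 and 1396 CPM at E11.5 and 4497 and 4965 CPM at E13.5, so that both E13.5 libraries lay above both E11.5 libraries. Its log2 fold change was 1.72 with a standard error (SE) of 0.11 and an adjusted p of 5.72e-06. Col3a1, the type III collagen that mixes with it, was at 1797 and 1765 CPM at E11.5 and 4347 and 4303 CPM at E13.5 and rose (log2 fold change 1.28, SE 0.07, adjusted p = 3.88e-08).

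Genes of proteins that sit on or between the fibres rose too. Lum, which encodes lumican, a small proteoglycan that spaces collagen fibrils, was at 26.4 and 16.7 CPM at E11.5 and 239 and 196 CPM at E13.5, a log2 fold change of 3.34 (SE 0.42, adjusted p = 0.00469). Dcn, its relative decorin, was at 46.7 and 29.9 CPM at E11.5 and 346 and 292 CPM at E13.5 (log2 fold change 3.06, adjusted p = 0.005). Col6a3, a chain of the beaded filaments around cells, was at 58.4 and 25.3 CPM at E11.5 and 364 and 398 CPM at E13.5 (log2 fold change 3.19, adjusted p = 0.00579). In these genes the E11.5 libraries already differed from each other, with replicate 1 the higher, but neither reached the E13.5 range. Postn, which encodes the matrix protein periostin, was at 104 and 54.9 CPM at E11.5 and 489 and 393 CPM at E13.5 and rose (log2 fold change 2.47); fitted on the 4 control libraries alone it missed the threshold (adjusted p = 0.0594). Among the 15 largest increases of genes that reached a mean of 5 CPM, 2 others belong to the mesenchyme or its matrix. Tnn, the matrix glycoprotein tenascin-N, held 2 counts in the E11.5 controls and 119 in the E13.5 controls, a ratio of 62.7 (95% interval 17.0 to 523, counting error only). Abca8a, a lipid transporter, was at 2.03 and 0.343 CPM at E11.5 and 25.5 and 23.3 CPM at E13.5 (log2 fold change 4.38, adjusted p = 3.59e-05).

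**Figure D1:**
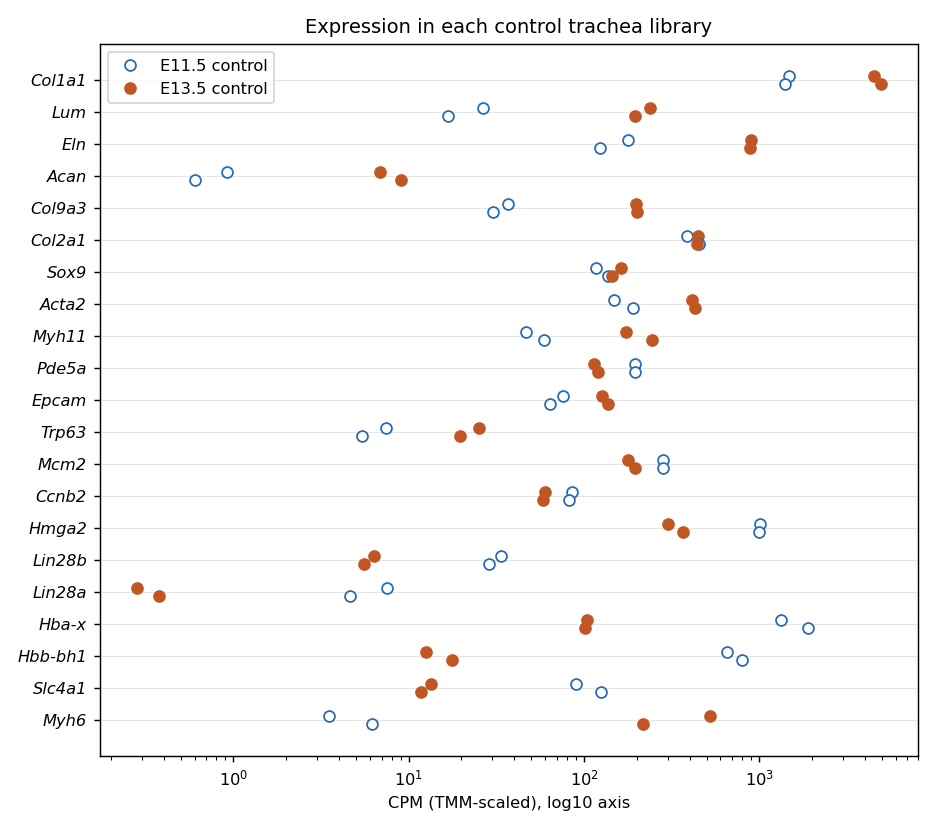
Levels of 21 genes in each of the 4 control libraries, in CPM on a log10 axis; open circles are the E11.5 controls and filled circles the E13.5 controls, 1 circle per library. The stages are apart for matrix, muscle, epithelial, cell cycle, let-7-related, globin and cardiac genes, and meet for Col2a1 and lie close for Sox9.

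The elastic coat moved the same way with fewer large changes. Of 18 elastic fibre genes tested, of 19 listed, 12 rose and 0 fell by edgeR (DESeq2 also gave 0, as did an unadjusted threshold of 0.05), 6 of them at least 2-fold, and the median log2 fold change was 0.33. Eln, the elastin of the fibre core, was at 177 and 124 CPM at E11.5 and 896 and 886 CPM at E13.5, which is 5.93-fold higher at E13.5 (log2 fold change 2.57, SE 0.33, adjusted p = 0.00485). Fbln5, the fibulin that helps to assemble elastin, was at 31.5 and 27.03 CPM at E11.5 and 160.3 and 170.3 CPM at E13.5 (log2 fold change 2.50, adjusted p = 0.0011). The elastin gene and its assembly factor had separate ranges at the stages, as every called gene did. The cross-linking enzyme gene Loxl1 rose (log2 fold change 1.08) and Ltbp3, whose product holds latent TGF-beta in the matrix, did too (log2 fold change 1.51). A gene of the microfibrils on which elastin is laid down was not called: Fbn2, the fibrillin typical of embryos, was at 928 and 1014 CPM at E11.5 and 937 and 981 CPM at E13.5, with overlapping stages (log2 fold change -0.02, adjusted p = 0.889). Fbn1, the later fibrillin, rose (log2 fold change 0.30), a call that was lost without E11.5 control replicate 1 or without either E13.5 control library or with a replicate block (adjusted p up to 0.211).

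Of the cartilage genes, the leading regulators were not called while most matrix genes rose. Sox9, the master factor of cartilage, was at 117 and 138 CPM at E11.5 and 163 and 145 CPM at E13.5 (log2 fold change 0.27, adjusted p = 0.183), and its partner Sox5 had a log2 fold change of 0.19 (adjusted p = 0.108). Neither passed the test, and in Sox9 the highest E11.5 library lay just under the lowest E13.5 library. Of 16 cartilage transcription factors tested, of 19 listed, 5 rose, 5 fell and 6 were not called (over all genes 20.4% rose and 21% fell), and 3 rose without either E11.5 control library or without E13.5 control replicate 1. Runx2, the factor of bone and of late cartilage cells, was at 19.4 and 15.3 CPM at E11.5 and 3.93 and 4.49 CPM at E13.5, a fall of 4.1-fold (log2 fold change -2.04, SE 0.22, adjusted p = 1.19e-05). Msx1 and Foxc1, factors of early mesenchyme, also fell, with log2 fold changes of -1.11 and -0.76; the call of Msx1 was lost without E11.5 control replicate 1 (adjusted p up to 0.0514). Barx1, a homeobox gene of foregut mesenchyme, was at 4.15 and 3.69 CPM at E11.5 and 17.1 and 14.8 CPM at E13.5 and rose (log2 fold change 2.02, adjusted p = 2.02e-04).

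The matrix genes of cartilage rose in a majority. Of 22 tested, of 31 listed, 15 rose, 2 fell (Hapln1 and Pth1r, the latter named after its values were seen), and 13 of the increases were at least 2-fold, with a median log2 fold change of 1.58. The number called higher was 9 without E11.5 control replicate 2. Their summed level was 1071 and 1059.9 CPM at E11.5 and 2121 and 2200.3 CPM at E13.5. Col2a1, the collagen that makes up the bulk of cartilage fibrils, did not follow: it was at 385 and 453 CPM at E11.5 and 448 and 442 CPM at E13.5, the stages overlapped, and it was not called (log2 fold change 0.09, adjusted p = 0.846). Col9a3, a chain of the collagen that coats those fibrils, was at 36.9 and 30.1 CPM at E11.5 and 199 and 200.2 CPM at E13.5 and rose 5.97-fold (log2 fold change 2.58, SE 0.38, adjusted p = 0.00782). Matn4, a matrilin that links matrix fibres, was at 24.2 and 15.8 CPM at E11.5 and 127 and 126 CPM at E13.5 (log2 fold change 2.66, adjusted p = 0.0034). The stages were apart in both genes by more than the spread within a stage.

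Some matrix genes of cartilage were still scarce. Acan, the large aggregating proteoglycan aggrecan, was at 0.922 and 0.601 CPM at E11.5 and 6.83 and 8.98 CPM at E13.5 (log2 fold change 3.37, SE 0.85, adjusted p = 0.0233). Lect1, the cartilage protein chondromodulin, was at 1.29 and 0.257 CPM at E11.5 and 7.02 and 7.95 CPM at E13.5 (log2 fold change 3.29, adjusted p = 0.00405). Both were low at E11.5 and stayed below 10 CPM, and per kilobase of gene model Acan reached 1.08 CPM, against 86.7 CPM for Col2a1 at E13.5. Hapln1, the link protein that ties aggrecan to hyaluronan, went the other way, at 25.1 and 22.997 CPM at E11.5 and 14.04 and 13.1 CPM at E13.5 (log2 fold change -0.82, adjusted p = 0.00133). The call of Acan was lost without any 1 of the control libraries or with limma-voom (adjusted p up to 0.128), and that of Col9a3 without E11.5 control replicate 2 (adjusted p = 0.0558).

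Smooth muscle genes moved in both directions. Of 26 tested, of 32 listed, 11 rose, 4 fell and 11 were not called (over all genes 20.4% rose and 21% fell), with a median log2 fold change of 0.42. The number that rose was 7 without E11.5 control replicate 1. Contractile genes were among the increases. Acta2, the smooth muscle actin, was at 149 and 191 CPM at E11.5 and 412 and 432 CPM at E13.5 (log2 fold change 1.31, SE 0.21, adjusted p = 0.00677). Myh11, the smooth muscle myosin heavy chain, was at 46.5 and 58.8 CPM at E11.5 and 175 and 244 CPM at E13.5 (log2 fold change 1.99, SE 0.23, adjusted p = 0.00251). Cnn1, the actin-binding calponin, was at 24.6 and 26.6 CPM at E11.5 and 73.7 and 79.2 CPM at E13.5 (log2 fold change 1.58, adjusted p = 1.23e-06). In these 3 genes the lowest E13.5 library was above the highest E11.5 library, as in every called gene that rose. Tagln, the actin-associated transgelin, had separate ranges too, at 56.1 and 84.4 CPM at E11.5 and 122 and 133 CPM at E13.5, but missed the threshold (adjusted p = 0.0737). Pde5a, a phosphodiesterase that breaks down cyclic GMP in smooth muscle, was at 196 and 196 CPM at E11.5 and 114 and 119.5 CPM at E13.5 and fell (log2 fold change -0.75, adjusted p = 0.00104). Cald1, the thin-filament protein caldesmon, which non-muscle cells also make, was at 505 and 492 CPM at E11.5 and 281 and 356 CPM at E13.5 and fell by 1.56-fold (adjusted p = 7.53e-04). The 2 other decreases, named after their values were seen, were Ppp1r14a and Pdlim7.

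The mural cell genes around vessels were split. Of 11 pericyte genes tested, 4 rose and 3 fell (over all genes 20.4% rose and 21% fell), with a median log2 fold change of 0.17 (-0.027 without E13.5 control replicate 2). Pdgfrb, the platelet-derived growth factor receptor of mural and early mesenchymal cells, was at 319.8 and 352 CPM at E11.5 and 152 and 177 CPM at E13.5 and fell 2.04-fold (adjusted p = 0.00251). Pdgfra, its fibroblast counterpart, rose (log2 fold change 0.52), as did Cspg4, a mural proteoglycan (log2 fold change 1.07), and Abcc9, a subunit of potassium channels (log2 fold change 1.22). Notch3, the mural Notch receptor, fell (log2 fold change -0.56).

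Airway epithelial genes rose as a group. Of 30 epithelial identity genes, all of them tested, 25 rose, 1 fell and 4 were not called, 10 rose at least 2-fold, and the median log2 fold change was 0.83. Their summed level was 928 and 804 CPM at E11.5 and 1416 and 1477 CPM at E13.5. Sox2, the factor that marks the proximal airway, was at 28.7 and 26.2 CPM at E11.5 and 67.5 and 78.2 CPM at E13.5 (log2 fold change 1.41, SE 0.13, adjusted p = 2.43e-05). Cdh1, the epithelial cadherin, was at 63.4 and 48.3 CPM at E11.5 and 132 and 137 CPM at E13.5 (log2 fold change 1.27, adjusted p = 5.16e-06), and Epcam, an epithelial surface protein, was at 75.5 and 64.01 CPM at E11.5 and 127 and 136 CPM at E13.5 (log2 fold change 0.92, adjusted p = 1.34e-06). All 3 genes had both E13.5 libraries above both E11.5 libraries, as every called gene that rose did. Nkx2-1, which the respiratory epithelium needs for its identity, was at 60.6 and 52.2 CPM at E11.5 and 73.5 and 68.97 CPM at E13.5, a log2 fold change of 0.34, and its call was lost without E11.5 control replicate 2 or without E13.5 control replicate 1 (adjusted p up to 0.127). Grhl1, a grainyhead factor of epithelial junctions, was at 1.75 and 1.03 CPM at E11.5 and 8.89 and 7.39 CPM at E13.5 (log2 fold change 2.55, adjusted p = 2.12e-05). The 1 decrease was Prom1, a membrane protein of epithelial and progenitor cells, at 83.8 and 84.5 CPM at E11.5 and 46.3 and 52.8 CPM at E13.5 (log2 fold change -0.76, adjusted p = 8.68e-06).

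Genes of the cell types into which the epithelium differentiates were at low levels. Of 16 basal cell genes tested, of 19 listed, 6 rose, 2 fell and 8 were not called, and 1 fell without either E11.5 control library or without E13.5 control replicate 1. Over all genes 20.4% rose and 21% fell. Trp63, the master factor of basal cells, was at 7.37 and 5.41 CPM at E11.5 and 25.1 and 19.6 CPM at E13.5 (log2 fold change 1.81, SE 0.20, adjusted p = 3.80e-05), with separate ranges. The basal keratins were low: Krt5 was at 0.553 and 0.772 CPM at E11.5 and 1.4 and 0.749 CPM at E13.5 and was not called (adjusted p = 0.606), and Krt15 was at 4.24 and 2.66 CPM at E11.5 and 9.17 and 7.86 CPM at E13.5 (adjusted p = 0.223). Perp, a desmosome protein, rose (log2 fold change 1.68), without a call once E13.5 control replicate 1 was left out (adjusted p = 0.0677), and Pdpn, the surface protein podoplanin, rose as well (log2 fold change 0.996). Aqp3, a water and glycerol channel of basal cells, fell from very little to less, at 1.94 and 2.06 CPM at E11.5 and 0.281 and 0.468 CPM at E13.5 (log2 fold change -2.39, adjusted p = 0.00209).

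Among 24 secretory, ciliated and neuroendocrine genes tested, of 30 listed, 6 rose, 2 fell and 16 were not called, a share of increases near that of all genes (20.4%). With any 1 control library left out, 1 fell. Cftr, the chloride channel of airway secretion, was at 12.9 and 9.1 CPM at E11.5 and 40.99 and 52.97 CPM at E13.5 (log2 fold change 2.099, SE 0.17, adjusted p = 2.55e-05). Ccno, needed to multiply centrioles in ciliated cells, was at 3.23 and 3.003 CPM at E11.5 and 16.4 and 17.03 CPM at E13.5 (log2 fold change 2.42, adjusted p = 3.09e-07). These ranges did not overlap between stages, as in every called gene. Foxj1, the factor of motile cilia, was not called (log2 fold change -0.13, adjusted p = 0.931). Tekt1, a protein of the ciliary axoneme, fell (log2 fold change -0.88), a call lost without any 1 of the control libraries or with DESeq2 (adjusted p up to 0.107). Scgb3a2, an early secretory product, was at 3.04 and 0.343 CPM at E11.5 and 4.96 and 4.77 CPM at E13.5, with E11.5 libraries far apart, and was not called (adjusted p = 0.354).

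**Figure D2:**
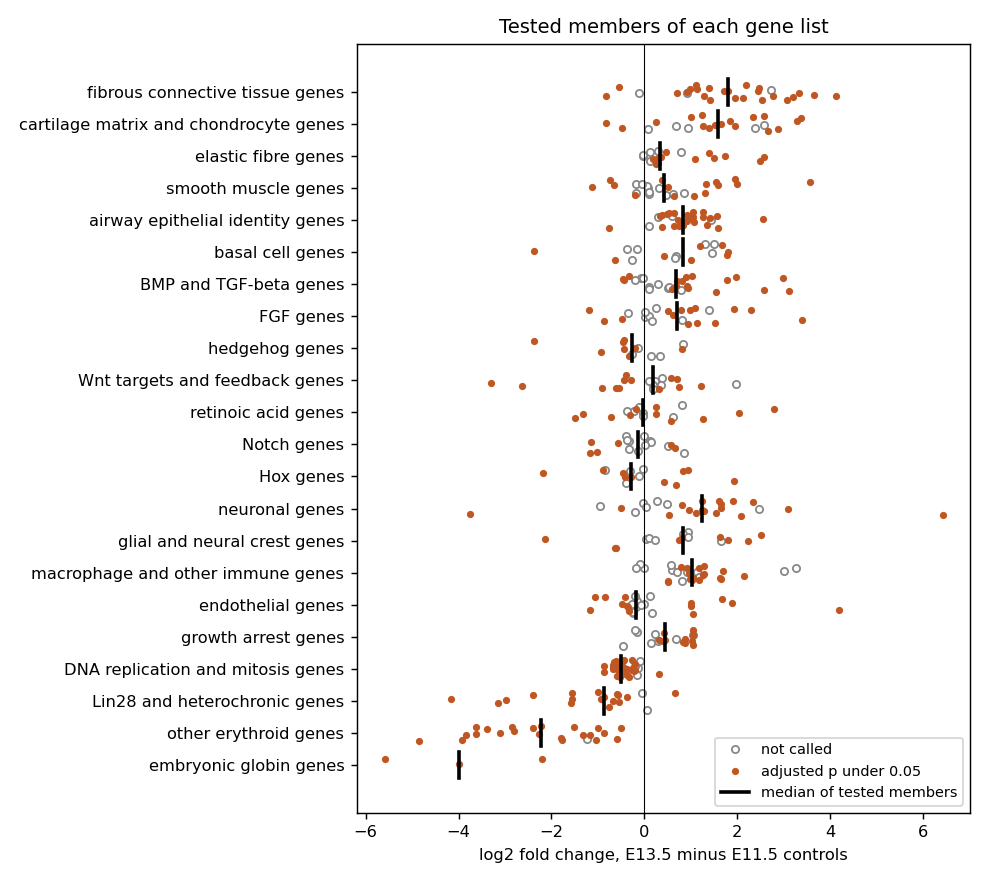
Log2 fold change from E11.5 to E13.5 in the controls for every tested member of 22 gene lists, 1 circle per gene, filled where the adjusted p was under 0.05; the black bar is the median of the tested members. Medians run from 1.80 in the fibrous list to -3.99 in the embryonic globins; the neuronal gene farthest to the right is Vip, whose fitted value rests on a count of 0 at E11.5 and is no bound.

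Among genes that pattern the foregut, several factors of the mesenchyme fell. Of 16 tested, of 21 listed, 7 fell and 4 rose (over all genes 20.4% rose and 21% fell), with a median log2 fold change of -0.13. Tbx5, a T-box factor that the respiratory mesenchyme shares with the heart and forelimb, was at 185 and 178 CPM at E11.5 and 88.1 and 98.5 CPM at E13.5 (log2 fold change -0.96, SE 0.07, adjusted p = 8.72e-07). Tbx4, its close relative, was at 92.4 and 82.03 CPM at E11.5 and 56.3 and 68.4 CPM at E13.5 (log2 fold change -0.48, adjusted p = 0.0161); the call was lost without E11.5 control replicate 1 or without E13.5 control replicate 1 (adjusted p up to 0.0991). Foxf2, a forkhead gene of gut and airway mesenchyme that answers to hedgehog, was at 34.3 and 44.4 CPM at E11.5 and 6.93 and 8.14 CPM at E13.5 (log2 fold change -2.38, SE 0.14, adjusted p = 1.13e-07). Each of these factors had both E11.5 libraries above both E13.5 libraries, as every called gene that fell did. Meis2, a homeobox cofactor, was at 269 and 267 CPM at E11.5 and 131 and 131 CPM at E13.5 (log2 fold change -1.04, adjusted p = 2.21e-07), and Wnt2, the ligand that with its relative Wnt2b specifies the respiratory foregut, was at 18.1 and 13.6 CPM at E11.5 and 7.11 and 8.61 CPM at E13.5 (log2 fold change -1.004, adjusted p = 9.29e-04). Osr2, a zinc-finger factor of mesenchyme, was at 10.9 and 3.17 CPM at E11.5 and 37.2 and 36.5 CPM at E13.5 and rose (log2 fold change 2.41), a call lost without either E13.5 control library or in the 4 control libraries alone (adjusted p up to 0.0927).

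Hox genes, which record position along the body axis, showed no common direction. Of 15 tested, of 39 listed, 5 rose and 5 fell (over all genes 20.4% rose and 21% fell), with a median of -0.30. Without E11.5 control replicate 2, 3 were called higher, and without either E11.5 control library 3 were called lower. Hoxa5, needed for a normal trachea and lung, was at 51.98 and 42.05 CPM at E11.5 and 90.7 and 90.9 CPM at E13.5 (log2 fold change 0.95, SE 0.11, adjusted p = 3.80e-05), and its neighbour Hoxa3 was at 50.8 and 43.3 CPM at E11.5 and 85.7 and 81.6 CPM at E13.5 (log2 fold change 0.83, adjusted p = 5.86e-05). Hoxb3 and Hoxb4 were among those that fell, with log2 fold changes of -0.47 for Hoxb3 and -0.30 for Hoxb4. Hoxb1 was at 1.11 and 0.686 CPM at E11.5 and 0.374 and 0 CPM at E13.5 and fell, a call lost without either E11.5 control library or without E13.5 control replicate 2 and in 3 other fits (adjusted p up to 0.25). The call of Hoxb4 was lost without either E11.5 control library or without E13.5 control replicate 1 or with DESeq2 (adjusted p up to 0.101), and DESeq2 called 3 Hox genes lower in all. Hox clusters carry antisense transcripts and the library kit does not mark strand, so reads from either strand cannot be told apart.

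In the Wnt pathway, most ligands tested were not called, and targets and feedback genes moved in both directions. Only 6 of 19 ligand genes were tested, of which 1 rose (Wnt5b, log2 fold change 0.76) and 1 fell (Wnt2, above). Of those not tested, 7 had low counts and 3 were at 0 in all columns of a stage. The other 3, Wnt2b, Wnt4 and Wnt11, were left out because their gene length differed between the tables. Wnt5a, the mesenchymal ligand that shapes tracheal length, had a log2 fold change of 0.10 (adjusted p = 0.257) and Wnt7b, the epithelial ligand, of 0.10 (adjusted p = 0.432); neither was called. Of 20 targets and feedback genes tested, of 24 listed, 5 rose and 8 fell (over all genes 20.4% rose and 21% fell). Their median log2 fold change was 0.19 (0.15 to 0.21 with 1 control library left out), with 12 above 0 and 8 below. Axin2, a target that many Wnt-responding tissues share, was at 50.3 and 46.5 CPM at E11.5 and 27.6 and 23.9 CPM at E13.5 (log2 fold change -0.91, SE 0.10, adjusted p = 1.64e-05). Sp5, a direct target in early embryos, was at 3.96 and 4.81 CPM at E11.5 and 0.749 and 0.655 CPM at E13.5 (log2 fold change -2.63, adjusted p = 1.26e-04). Dkk1, a secreted Wnt inhibitor, was at 4.42 and 5.92 CPM at E11.5 and 0.281 and 0.749 CPM at E13.5 (log2 fold change -3.31, adjusted p = 3.72e-05). Their E11.5 values all lay above their E13.5 values, as in every called gene that fell. Notum, an enzyme that inactivates Wnt proteins, was at 29.03 and 22.2 CPM at E11.5 and 17.2 and 17.97 CPM at E13.5; its call was lost without E11.5 control replicate 1 or without either E13.5 control library or with DESeq2 (adjusted p up to 0.216). Lgr5, a receptor that strengthens Wnt signals, rose (log2 fold change 0.70), a call lost without E11.5 control replicate 2 (adjusted p = 0.0798). Wif1, a secreted inhibitor, was at 21.4 and 2.32 CPM at E11.5 and 52.2 and 40.1 CPM at E13.5 and was not called (adjusted p = 0.161). DESeq2 called 5 of these targets higher, as edgeR did, and 5 lower, not 8. The number was 3 without E11.5 control replicate 1, 4 without E13.5 control replicate 1 and 5 without E13.5 control replicate 2, and 3 were called higher without E11.5 control replicate 2.

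Of 26 BMP and TGF-beta genes tested, of 30 listed, 14 rose and 3 fell, with a median log2 fold change of 0.69. Without E11.5 control replicate 2, 1 fell, and without E13.5 control replicate 2, 0 fell. Bmp4, the ligand that the ventral mesenchyme needs to form a trachea, was at 33.9 and 36.98 CPM at E11.5 and 33.97 and 33.5 CPM at E13.5 and was not called (adjusted p = 0.596). Gdf5, a ligand of skeletal condensations and joints, was at 4.42 and 3.26 CPM at E11.5 and 21.8 and 23.8 CPM at E13.5 (log2 fold change 2.57, SE 0.20, adjusted p = 8.98e-07). Tgfb3, a TGF-beta of mesenchyme, was at 43.6 and 37.1 CPM at E11.5 and 137 and 139 CPM at E13.5 (log2 fold change 1.78, adjusted p = 3.81e-05). In both rising ligands the stages were far apart. Bmp2, a BMP ligand, rose (log2 fold change 1.53, adjusted p = 3.62e-04). Gdf10, a ligand of the TGF-beta family, was at 22.6 and 5.23 CPM at E11.5 and 115 and 102 CPM at E13.5, where E11.5 replicate 1 was the higher of its pair, and the call was lost without either E13.5 control library or in the 4 control libraries alone (adjusted p up to 0.0995). Bambi, a decoy receptor induced by BMP, fell (log2 fold change -0.46), a call lost without E11.5 control replicate 2 or without E13.5 control replicate 2 or with upper-quartile scaling (adjusted p up to 0.134).

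Of 13 hedgehog genes tested, of 18 listed, 7 fell and 1 rose (over all genes 21% fell and 20.4% rose). Ptch1, Cdon and Foxf1 were not tested because their gene length differed between the tables. The ligand Shh, made by the epithelium, was at 17.3 and 18.4 CPM at E11.5 and 21.4 and 23.7 CPM at E13.5 and was not called (log2 fold change 0.33, adjusted p = 0.231). Hhip, a ligand-binding inhibitor that the pathway induces, was at 91.2 and 101 CPM at E11.5 and 60.2 and 80.2 CPM at E13.5 and fell (log2 fold change -0.45), a call lost without either E11.5 control library or without E13.5 control replicate 1 or in the 4 control libraries alone (adjusted p up to 0.141). Gli1, the induced transcription factor, was not called (log2 fold change -0.26, adjusted p = 0.0752). Boc, a co-receptor, was the 1 that rose (log2 fold change 0.80). Without E11.5 control replicate 2 or E13.5 control replicate 1, 4 genes were called lower.

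FGF genes rose in 11 of 22 tested and fell in 3, with a median of 0.71; without either E13.5 control library, 1 fell. Over all genes 20.4% rose and 21% fell. Fgf10, the mesenchymal ligand of lung budding and of tracheal cartilage growth, was at 9.31 and 9.01 CPM at E11.5 and 17.1 and 14.7 CPM at E13.5 (log2 fold change 0.80, adjusted p = 7.31e-04). Fgfr3, a receptor of chondrocytes, was at 34.3 and 26.6 CPM at E11.5 and 87.04 and 86.8 CPM at E13.5 (log2 fold change 1.52, SE 0.12, adjusted p = 1.12e-05), and Fgfr2, the main epithelial receptor for Fgf10, rose (log2 fold change 0.62). Against these, Etv5, a transcription factor that FGF induces in lung buds, was at 97.1 and 80.5 CPM at E11.5 and 40.2 and 37.3 CPM at E13.5; its fall (log2 fold change -1.19) was no longer called without E11.5 control replicate 1 or without either E13.5 control library (adjusted p up to 0.0898). Among the feedback inhibitors, Spry4 rose (log2 fold change 1.09) and Dusp6 fell (log2 fold change -0.48). Abca3, the lamellar body transporter of distal lung cells, was at 34.8 and 31.5 CPM at E11.5 and 58.8 and 60.1 CPM at E13.5 (log2 fold change 0.84, adjusted p = 3.58e-05), 1 of 11 distal lung genes tested, of which 3 rose and 2 fell, near the shares over all genes (20.4% and 21%); 0 fell without E11.5 control replicate 1 or without either E13.5 control library.

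Enzymes that make retinoic acid changed in opposite directions. Aldh1a2, the enzyme of early mesenchyme and of mesothelium, was at 178 and 173 CPM at E11.5 and 64.7 and 60.3 CPM at E13.5 (log2 fold change -1.49, SE 0.15, adjusted p = 4.61e-04). Aldh1a1, a related retinaldehyde dehydrogenase, was at 3.32 and 2.57 CPM at E11.5 and 11.04 and 13.1 CPM at E13.5 (log2 fold change 2.04, adjusted p = 3.52e-06) and Aldh1a3, another, at 1.38 and 1.12 CPM at E11.5 and 10.4 and 6.93 CPM at E13.5 (log2 fold change 2.79, adjusted p = 1.13e-05). Per kilobase of gene model, the level at E11.5 was 77.4 CPM for Aldh1a2, 1.45 CPM for Aldh1a1 and 0.367 CPM for Aldh1a3, so the fall concerned the most abundant of these 3 enzymes. Stra6, the receptor that takes up retinol, was at 118 and 122 CPM at E11.5 and 45.7 and 50.1 CPM at E13.5 and fell (log2 fold change -1.32, adjusted p = 5.56e-07). Of 18 retinoic acid genes tested, 6 rose and 5 fell (over all genes 20.4% rose and 21% fell), and 3 rose without E11.5 control replicate 2 or without E13.5 control replicate 2. The binding protein genes went apart, Crabp2 with a log2 fold change of -0.71 and Crabp1 at 62.1 and 51.7 CPM at E11.5 and 141 and 134 CPM at E13.5, whose rise lost its call without any 1 of the control libraries (adjusted p up to 0.149).

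In the Notch list 4 of 17 tested genes fell and 2 rose, no larger a share than over all genes for increases (20.4%) and a similar one for decreases (21%). Leaving out E11.5 control replicate 1 gave 1 increase. Jag1, a ligand, was at 150.4 and 157 CPM at E11.5 and 62.9 and 73.6 CPM at E13.5 (log2 fold change -1.17, SE 0.13, adjusted p = 4e-04), and the target gene Hey1 was at 59.9 and 69.2 CPM at E11.5 and 27.6 and 35.7 CPM at E13.5 (log2 fold change -1.03, adjusted p = 4.90e-05). Notch4, the receptor of endothelium, fell (log2 fold change -1.14). Hey2, a related target, rose (log2 fold change 0.67), a call lost without E11.5 control replicate 1 or without E13.5 control replicate 2 or with DESeq2 (adjusted p up to 0.206), and Lfng, which modifies Notch receptors, rose (log2 fold change 0.57).

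Proliferation genes fell together and by little. Of 46 DNA replication and mitosis genes, all tested, 41 fell and 1 rose, none by 2-fold, with a median log2 fold change of -0.50 and a summed level of 8034 and 8185 CPM at E11.5 and 6073 and 6163 CPM at E13.5. Mcm2, a subunit of the replicative helicase, was at 281 and 283 CPM at E11.5 and 178 and 195 CPM at E13.5 (log2 fold change -0.60, SE 0.07, adjusted p = 1.83e-05). Rrm2, the ribonucleotide reductase subunit made for DNA synthesis, was at 184 and 181 CPM at E11.5 and 106 and 95.6 CPM at E13.5 (log2 fold change -0.86, adjusted p = 6.78e-07). Cdc20, the activator of the anaphase-promoting complex, was at 144 and 144 CPM at E11.5 and 87.9 and 92.5 CPM at E13.5 (log2 fold change -0.67, adjusted p = 7.78e-06). In each the replicates of a stage agreed closely and the stages did not overlap. Ccnb2, a mitotic cyclin, was at 85.4 and 81.8 CPM at E11.5 and 60.3 and 58.6 CPM at E13.5 (log2 fold change -0.49, adjusted p = 9.02e-05). Mki67, the nuclear protein of dividing cells, was at 764 and 789.6 CPM at E11.5 and 673 and 667 CPM at E13.5, a log2 fold change of -0.21 whose call was lost without E11.5 control replicate 2 or without either E13.5 control library (adjusted p up to 0.0853). The 1 gene that rose was Ccnd1, the cyclin that starts the cycle, at 311 and 319.6 CPM at E11.5 and 405 and 379.7 CPM at E13.5 (log2 fold change 0.32, adjusted p = 9.52e-04).

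The promoters of mitotic genes are known for CCAAT boxes, bound by the factor NF-Y, and 2 are shown because they belong to genes that fell. Each is the 130 bases before the start site, 5′ to 3′ on the gene's strand, from RefSeq on GRCm38.p6, with CCAAT or its complement ATTGG in capitals.
Ccnb2, chr9:70421555-70421684, minus strand: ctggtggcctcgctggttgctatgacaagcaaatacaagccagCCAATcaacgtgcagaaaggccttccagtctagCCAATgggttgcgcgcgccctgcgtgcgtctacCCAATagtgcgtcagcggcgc
Cdc20, chr4:118437344-118437473, minus strand: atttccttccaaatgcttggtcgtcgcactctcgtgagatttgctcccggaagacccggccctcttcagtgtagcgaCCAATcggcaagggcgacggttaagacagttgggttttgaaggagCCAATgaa
In the 250 bases before the start, CCAAT on either strand was present in 28 of 36 list members with a RefSeq promoter (77.8%), against 36.4% of 10770 tested genes and 34.5% of 27025 promoters. A match describes the letters and not a bound site.

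Growth arrest genes moved the other way: 11 of 19 tested rose and 0 fell by edgeR (0 by DESeq2, 2 at an unadjusted threshold of 0.05), and the median log2 fold change was 0.46. Cdkn1c, an imprinted inhibitor of cyclin-dependent kinases, was at 679 and 703 CPM at E11.5 and 934 and 960.5 CPM at E13.5 (log2 fold change 0.46, SE 0.07, adjusted p = 1.19e-04). Btg2, an antiproliferative gene, was at 19.7 and 23.4 CPM at E11.5 and 43.99 and 44.5 CPM at E13.5 (log2 fold change 1.03, adjusted p = 3.07e-06). Rbl2, a retinoblastoma relative of resting cells, rose (log2 fold change 0.87), as did Ccng1, a p53 target (log2 fold change 0.87). Cdkn1a, the p21 inhibitor, rose (log2 fold change 0.84), a call lost without any 1 of the control libraries or with limma-voom (adjusted p up to 0.169). Cdkn2c, the p18 inhibitor, rose (log2 fold change 1.06), a call lost without E11.5 control replicate 1 or without E13.5 control replicate 1 or with DESeq2 (adjusted p up to 0.121).

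The genes of the Lin28 and heterochronic list fell almost throughout. As background, Lin28 proteins block the maturation of let-7 microRNAs in early embryos, and let-7, which rises later, represses Lin28 and a set of growth genes. Of 19 genes tested, of 20 listed, 16 fell, 1 rose (Sall1, named after its values were seen, at 10.2 and 12.5 CPM at E11.5 and 16.6 and 19.3 CPM at E13.5; 0 without E11.5 control replicate 1), and 2 were not called, 7 fell at least 2-fold, and the median log2 fold change was -0.87. Lin28b was at 33.8 and 28.7 CPM at E11.5 and 6.36 and 5.52 CPM at E13.5 (log2 fold change -2.39, SE 0.16, adjusted p = 2.95e-07). Lin28a was at 7.56 and 4.63 CPM at E11.5 and 0.281 and 0.374 CPM at E13.5 (log2 fold change -4.17, SE 0.50, adjusted p = 3.06e-05). Both members of the pair were lower in each E13.5 library than in either E11.5 library, as was every called gene that fell. Hmga2, a chromatin protein of growing embryonic tissue, was at 1009 and 990.5 CPM at E11.5 and 302 and 365 CPM at E13.5 (log2 fold change -1.58, SE 0.08, adjusted p = 2.11e-08). Trim71, a ubiquitin ligase of early embryos, was at 6.54 and 6.95 CPM at E11.5 and 0.562 and 0.936 CPM at E13.5 (log2 fold change -3.16, adjusted p = 6.81e-06). Igf2bp1, a fetal mRNA-binding protein, was at 275 and 279 CPM at E11.5 and 145 and 147 CPM at E13.5 (log2 fold change -0.92, adjusted p = 4.29e-08). Nr6a1, a nuclear receptor of the early embryo, did not follow them, at 6.91 and 7.29 CPM at E11.5 and 7.77 and 6.93 CPM at E13.5 (log2 fold change 0.05, adjusted p = 0.863).

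Mature let-7 was not analysed here, but its sequence can be set beside these transcripts. The family members below, from RefSeq on GRCm38.p6, share the seed (bases 2 to 8, in capitals) and are shown because the sites that follow are read against it.
mmu-let-7a-5p: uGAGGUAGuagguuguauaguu
mmu-let-7d-5p: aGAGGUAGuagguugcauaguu
mmu-let-7i-5p: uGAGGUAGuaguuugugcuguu
mmu-miR-98-5p: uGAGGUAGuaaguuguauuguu
The complement of that seed, CTACCTC, stands in the 3′ untranslated region of falling genes. From the GENCODE M21 annotation on GRCm38, 1 of the 4 matches in each of the following genes is given with the bases before it, 5′ to 3′ on the gene's strand, which is the minus strand in all of them, with the match in capitals.
Hmga2, chr10:120364224-120364253: agggggcgccgacattcaatttCTACCTCa
Lin28b, chr10:45381022-45381051: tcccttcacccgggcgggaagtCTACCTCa
Trim71, chr9:114512472-114512501: aaagtacaacattgcctaagtcCTACCTCa
Igf2bp1, chr11:95961778-95961807: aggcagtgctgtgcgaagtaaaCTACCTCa
The match printed for each gene was chosen as the first that is followed by an A, opposite the first base of the microRNA. That shared A therefore reflects the choice.

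Of the 19 heterochronic genes tested, 13 held at least 1 match (10.3% of all genes with an annotated 3′ untranslated region did), and 12 of these 13 fell, with a median log2 fold change of -1.55. Of the 6 without a match 4 fell, with a median of -0.48. Known let-7 targets were among the reasons for listing these genes, so the match is not independent of the list. Over all genes the pattern was weak. A 3′ untranslated region was annotated for 13168 of the 13763 genes; 21.4% of the 11806 genes without a match were called lower, 22.2% of 1193 with 1 match, 27.6% of 145 with 2, and 45.8% of 24 with 3 or more. The share called higher was 20.8%, 21.96%, 16.6% and 20.8% in that order. These groups include the heterochronic list. Of its genes, Hmga2, Igf2bp1, Lin28b and Trim71, which fell, and Nr6a1, which was not called, are among the 24. Genes with more matches also had longer untranslated regions, a median of 1064 bases without a match and 4682 bases with 3 or more. Among regions of 2000 to 5000 bases the shares called lower were 19.1% of 2739 genes, 20.3% of 498, 25.7% of 74 and 30.8% of 13. In numbers these were 522, 101, 19 and 4 genes, against 694, 120, 10 and 4 called higher in that order. With 3 or more matches in this window, as many genes rose as fell, and the median log2 fold change was 0.048. Nr6a1, with 8 matches the highest number found, was not among the genes that fell.

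**Figure D3:**
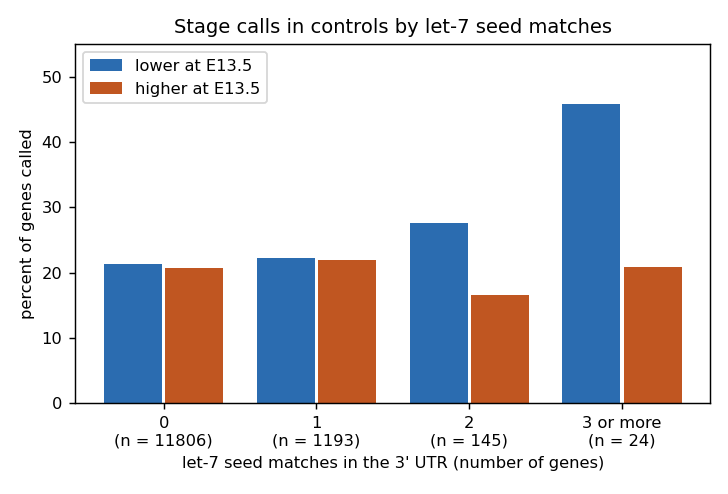
Percent of genes called lower (blue) or higher (orange) at E13.5 in the controls, by the number of let-7 seed matches in the longest annotated 3′ untranslated region; the number of genes stands under each pair of bars. The share called lower is 21.4% without a match and 45.8% in the 24 genes with 3 or more. That group also has the longest untranslated regions and includes genes of the heterochronic list.

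Imprinted growth genes, which are marked by parental origin and mostly act on fetal size, rose in 8 of 20 tested and fell in 7 (over all genes 20.4% rose and 21% fell). Igf2, the fetal growth factor, and H19, its neighbouring noncoding RNA, rose: Igf2 was at 3949 and 3886 CPM at E11.5 and 5849 and 6089 CPM at E13.5 (log2 fold change 0.61, SE 0.06, adjusted p = 3.66e-06) and H19 at 5675 and 5368 CPM at E11.5 and 8936 and 9436 CPM at E13.5 (log2 fold change 0.73, adjusted p = 3.07e-06). Igf2r, the receptor that clears Igf2, fell (log2 fold change -0.68). Dlk1, a transmembrane relative of Notch ligands, was at 196 and 161 CPM at E11.5 and 709 and 741 CPM at E13.5 (log2 fold change 2.02, adjusted p = 3.45e-07). Peg10, a gene derived from a retrotransposon, was at 500.2 and 522 CPM at E11.5 and 225 and 226 CPM at E13.5 and fell (log2 fold change -1.18, adjusted p = 1.80e-08), and Peg3, a zinc-finger gene, fell (log2 fold change -0.50).

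Red cell genes carried the largest decreases. All 3 embryonic globin genes fell, with a median log2 fold change of -3.99, and 22 of 23 other erythroid genes tested fell, 19 of them at least 2-fold, with 0 higher by edgeR (DESeq2 also gave 0, as did an unadjusted threshold of 0.05) and a median of -2.22. Hbb-bh1, an embryonic beta-like globin of the earliest red cells, was at 654 and 800.3 CPM at E11.5 and 12.5 and 17.7 CPM at E13.5 (log2 fold change -5.59, SE 0.31, adjusted p = 2.88e-04). Hba-x, the embryonic zeta chain of the alpha family, was at 1336 and 1904 CPM at E11.5 and 103 and 101 CPM at E13.5 (log2 fold change -3.99, SE 0.43, adjusted p = 0.00295). Hbb-y, the other embryonic beta-like globin, was at 2352 and 3931 CPM at E11.5 and 737 and 636 CPM at E13.5 (log2 fold change -2.19, adjusted p = 0.0184). The E11.5 libraries differed among themselves in all 3, replicate 2 being the higher, but stayed above both E13.5 libraries. The call of Hbb-y was lost without E11.5 control replicate 2 or without either E13.5 control library or in the 4 control libraries alone (adjusted p up to 0.098).

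Adult globins were not called: 4 were tested and 0 passed the test by edgeR, by DESeq2 or by limma-voom, with 0 of 4 at an unadjusted threshold of 0.05, with a median log2 fold change of 0.09, which ranged from -0.35 to 0.68 with 1 control library left out. Hba-a1, an adult alpha globin, was at 771 and 1386 CPM at E11.5 and 717 and 456 CPM at E13.5 (log2 fold change -0.88, adjusted p = 0.258). Hbb-b1, an adult beta globin, was at 74.1 and 168 CPM at E11.5 and 325 and 176 CPM at E13.5 (log2 fold change 1.05, adjusted p = 0.272). In both genes the replicates of a stage lay far apart for the distance between the stages. Hba-a2, near-identical to Hba-a1, had a log2 fold change of -1.002, and Beta-s, near-identical to Hbb-b1, of 1.09; how reads were split within each pair is uncertain. Within the beta family, the embryonic genes Hbb-y and Hbb-bh1 made up 94.98% and 92.53% of the summed level per gene length in the E11.5 controls, and 50.2% and 62.0% in the E13.5 controls. Within the alpha family, Hba-x made up 45.3% and 39.9% at E11.5 and 6.78% and 9.89% at E13.5. The E13.5 shares lay below the E11.5 shares in every control library. Shares within the family do not depend on how much blood a trachea held, while the sum of all globins, 10050 and 16230 CPM per kilobase at E11.5 and 4955 and 3402 at E13.5, does.

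Promoters of 4 globin genes are given because the members went apart. They are the 130 bases before the start site, 5′ to 3′ on the gene's strand, from RefSeq on GRCm38.p6, with CACCC, the letters that factors of the Klf family such as Klf1 bind, and CCAAT in capitals. Hbb-bs is the RefSeq name of the gene that the deposited tables call Beta-s.
Hbb-y, chr7:103853208-103853337, minus strand: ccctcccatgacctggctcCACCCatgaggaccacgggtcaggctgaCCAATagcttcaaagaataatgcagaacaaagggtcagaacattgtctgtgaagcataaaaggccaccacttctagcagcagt
Hba-x, chr11:32276470-32276599, plus strand: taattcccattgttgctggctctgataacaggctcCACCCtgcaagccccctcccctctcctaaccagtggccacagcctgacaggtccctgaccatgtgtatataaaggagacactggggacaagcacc
Hbb-bs, chr7:103827929-103828058, minus strand: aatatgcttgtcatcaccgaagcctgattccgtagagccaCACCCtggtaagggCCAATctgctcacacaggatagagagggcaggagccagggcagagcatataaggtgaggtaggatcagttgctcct
Hba-a1, chr11:32283542-32283671, plus strand: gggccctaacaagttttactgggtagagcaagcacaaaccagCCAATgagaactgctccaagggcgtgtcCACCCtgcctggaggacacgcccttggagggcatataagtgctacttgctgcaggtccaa
CACCC on either strand was found in the 250 bases before the start of both embryonic and all 3 adult globin genes with a RefSeq promoter, but also in 51.3% of all 27025 promoters, so its presence does not set the embryonic members apart. CCAAT was found in 1 of 2 embryonic and in 3 of 3 adult globin promoters; where it is missing, this says only that these letters are not in the window.

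The other erythroid genes cover regulators, membrane proteins and haem synthesis. Klf1, the factor that drives red cell differentiation, was at 5.71 and 6.69 CPM at E11.5 and 0.749 and 0.0936 CPM at E13.5 (log2 fold change -3.85, SE 0.60, adjusted p = 4.96e-04). Slc4a1, the anion exchanger band 3, was at 90.6 and 125 CPM at E11.5 and 13.4 and 11.8 CPM at E13.5 (log2 fold change -3.10, adjusted p = 0.0013). E13.5 values were low in both replicates of both genes. Hemgn, a nuclear protein of blood progenitors, fell (log2 fold change -4.86). Alas2, the first enzyme of haem synthesis in red cells, was at 43.3 and 78.4 CPM at E11.5 and 20.6 and 14.9 CPM at E13.5, and its call was lost without either E13.5 control library and in 4 other fits (adjusted p up to 0.135). Tfrc, the transferrin receptor that dividing cells of other types use too, was at 127 and 123 CPM at E11.5 and 83.1 and 84.4 CPM at E13.5 (log2 fold change -0.58, adjusted p = 1.58e-05).

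Macrophage and other immune genes rose: 17 of 29 tested were higher and 0 lower by edgeR (DESeq2 also gave 0, as did an unadjusted threshold of 0.05), with a median log2 fold change of 1.03. The number of increases was 11 without E11.5 control replicate 2. Csf1r, the receptor on which macrophages depend, was at 14.8 and 12.5 CPM at E11.5 and 36.1 and 30.3 CPM at E13.5 (log2 fold change 1.28, SE 0.21, adjusted p = 0.00169). C1qa, a complement gene of tissue macrophages, was at 3.5 and 3.95 CPM at E11.5 and 12.9 and 11.3 CPM at E13.5 (log2 fold change 1.70, adjusted p = 6.35e-05). Both had the stages apart. Emr1, which encodes the macrophage antigen F4/80, rose (log2 fold change 1.64), as did Mrc1, the mannose receptor (log2 fold change 1.28), the latter with its call lost without any 1 of the control libraries or with limma-voom (adjusted p up to 0.0995). Mpo, of neutrophil precursors, was not called (log2 fold change -0.09, adjusted p = 0.926).

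Of 26 endothelial genes tested, 6 rose and 8 fell, not far from the shares over all genes (20.4% and 21%). Without E11.5 control replicate 2, 3 were called higher, and 4 were called lower without either E11.5 control library or without E13.5 control replicate 1. Pecam1, a junction protein of all endothelium, was not called (log2 fold change -0.15, adjusted p = 0.29), while Plvap, of fenestrated vessels, fell (log2 fold change -1.17) as did Emcn, a sialomucin of veins and capillaries (log2 fold change -1.07). Ccl21a, a chemokine of lymphatic vessels, was at 1.29 and 0.858 CPM at E11.5 and 16.7 and 22.6 CPM at E13.5 and rose (log2 fold change 4.19, SE 0.51, adjusted p = 7.83e-04), and Lyve1, a hyaluronan receptor shared by lymphatics and some macrophages, at 3.78 and 3.17 CPM at E11.5 and 14.5 and 7.77 CPM at E13.5 (log2 fold change 1.68, adjusted p = 0.0102). Prox1, the master factor of lymphatic endothelium, was left out because its gene length differed between the tables. Ccl21a and Lyve1 were scarce at E11.5 and higher in each E13.5 library. Ccl21a has near-identical copies, so its reads may be shared, and the call of Lyve1 was lost without either E11.5 control library (adjusted p up to 0.0858). Cdh5, the vascular cadherin, fell (log2 fold change -0.42), a call lost without either E11.5 control library or without E13.5 control replicate 1 and in 6 other fits (adjusted p up to 0.209).

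Neuronal genes rose in 16 of 25 tested and fell in 2 (1 without E11.5 control replicate 2 or without E13.5 control replicate 2), with a median of 1.23. Phox2a, a factor of autonomic neurons, was at 1.75 and 1.29 CPM at E11.5 and 15.6 and 10.3 CPM at E13.5 (log2 fold change 3.09, SE 0.34, adjusted p = 3.14e-05). Tubb3, the neuronal tubulin, was at 15.8 and 15.2 CPM at E11.5 and 50.2 and 39.9 CPM at E13.5. Both were higher in both E13.5 libraries. The rise of Tubb3 (log2 fold change 1.54) lost its call without any 1 of the control libraries and in 4 other fits (adjusted p up to 0.163). That of Stmn2, a growth cone protein (log2 fold change 2.08), lost its call without any 1 of the control libraries or without the E13.5 mutants (adjusted p up to 0.119). Vip, a neuropeptide of parasympathetic airway neurons, had no count in the E11.5 controls and 18 in the E13.5 controls, which is at least 6.32-fold higher against a floor of 3 counts over the group. Gal, the neuropeptide galanin, went down, at 21.5 and 16.5 CPM at E11.5 and 1.03 and 1.78 CPM at E13.5 (log2 fold change -3.75, adjusted p = 3.45e-07).

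Glial and neural crest genes rose in 6 of 16 and fell in 3 (over all genes 20.4% rose and 21% fell). With either E11.5 control library or E13.5 control replicate 1 left out, 0 fell. Sox10, the factor of neural crest and glia, was at 43.9 and 49.7 CPM at E11.5 and 25.4 and 36.2 CPM at E13.5 and fell (log2 fold change -0.60), a call lost without either E11.5 control library or without E13.5 control replicate 1 (adjusted p up to 0.153). Tfap2b, a factor of neural crest, fell (log2 fold change -2.14), a call lost without any 1 of the control libraries (adjusted p up to 0.103). Gfra2, the neurturin receptor of parasympathetic neurons and glia, rose (log2 fold change 1.79).

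Striated muscle genes gave some of the largest increases and a wide spread between replicates. All 24 skeletal muscle genes tested had a log2 fold change above 0 (median 1.67). Of the 15 cardiac genes, 11 lay above 0 and 4 below (median 1.47). Of 24 skeletal muscle genes tested 5 rose, which is the share over all genes (20.4%), and of 15 cardiac genes 6 rose and 2 fell (1 fell with any 1 control library left out). Myh6, the atrial myosin heavy chain, was at 3.5 and 6.18 CPM at E11.5 and 526 and 218 CPM at E13.5 (log2 fold change 6.25, SE 1.38, adjusted p = 0.0275). Myl7, the atrial light chain, was at 8.3 and 12.1 CPM at E11.5 and 283 and 118 CPM at E13.5 (log2 fold change 4.29, SE 0.99, adjusted p = 0.031). Myl4, a light chain of embryonic muscle and atrium, was at 5.25 and 4.63 CPM at E11.5 and 207 and 89.4 CPM at E13.5 (log2 fold change 4.91, adjusted p = 0.0153). All of these were far higher at E13.5, and in each E13.5 replicate 1 was over 2-fold above replicate 2. Actc1, the cardiac and fetal skeletal actin, was at 17.1 and 33.6 CPM at E11.5 and 433 and 246 CPM at E13.5, and Nppa, an atrial hormone, at 0.277 and 0.0858 CPM at E11.5 and 4.87 and 5.99 CPM at E13.5. The summed level of the cardiac list was 286 and 329.8 CPM at E11.5 and 1489 and 717 CPM at E13.5, and that of the skeletal list 91.4 and 138 CPM at E11.5 and 975 and 598 CPM at E13.5. Hand1, a factor of heart and of other lateral mesoderm, fell, at 5.71 and 9.7 CPM at E11.5 and 0.468 and 0.374 CPM at E13.5 (adjusted p = 1.86e-04), and Nkx2-5, an early heart factor, was not called (log2 fold change 0.24, adjusted p = 0.636).

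With 1 control library left out, 1 to 6 cardiac and 0 to 3 skeletal genes were called higher (cardiac: 1 without any control library other than E13.5 replicate 2; skeletal: 0 without either E11.5 library); under limma-voom the numbers were 1 and 1, in the 4 control libraries alone 2 and 12, and under DESeq2 14 skeletal genes. The calls of Myh6, Mybpc3 (a cardiac thick-filament protein), Myh8 (a perinatal skeletal myosin), Myl7, Myl4, Actc1, Tnnc1 (a slow and cardiac troponin), Csrp3 (a muscle LIM protein) and Cox6a2 (a heart and muscle subunit of cytochrome oxidase) were each lost without either E11.5 control library and in 1 to 4 other fits (adjusted p up to 0.338, for Myh8). With both libraries of a stage summed, Cox6a2 held 1 count at E11.5 and 151 at E13.5, a ratio of 159 (95% interval 28.1 to 6320). Fsd2, another striated muscle gene, held none and 128, at least 44.9-fold higher for that sum. The E13.5 libraries were apart, at 9.55 and 4.59 CPM for Cox6a2 and 8.80 and 3.18 CPM for Fsd2. Myog, the factor of differentiating skeletal muscle, was at 3.32 and 9.18 CPM at E11.5 and 13.2 and 15.9 CPM at E13.5 and was not called (adjusted p = 0.291), nor was Myh3, the embryonic skeletal myosin (log2 fold change 3.58, adjusted p = 0.0639). Muscle or heart tissue carried into the dissection and muscle within the trachea cannot be told apart in these data.

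Markers of neighbouring organs included thyroid genes. Pax8, a factor of thyroid and kidney, had no count in the E11.5 controls and 152 in the E13.5 controls, at least 53.4-fold higher; the levels at E13.5 were 5.90 and 8.33 CPM. Foxe1, another thyroid factor, rose (log2 fold change 3.62), while Tshr, the receptor for thyrotropin, fell (log2 fold change -1.32). Hhex, a homeobox gene of thyroid and liver buds, and Tg, the thyroid hormone precursor, were not called (log2 fold change 1.86 and 0.89), the latter at 1.57 and 1.12 CPM at E11.5 and 2.53 and 2.43 CPM at E13.5. In all, 2 of 8 thyroid, parathyroid and thymus genes rose and 1 fell, near or below the shares over all genes (20.4% and 21%). Of 8 mesothelial genes 1 rose and 1 fell, below those shares; Wt1, a factor of mesothelium, was not called (log2 fold change -0.76, adjusted p = 0.294), and the rise of Gpm6a, a membrane glycoprotein (log2 fold change 1.18), was lost without either E11.5 control library or without E13.5 control replicate 1 or with limma-voom or with a replicate block (adjusted p up to 0.284). Of the other genes with the largest increases, Htr3a, a serotonin-gated channel of nerves, was at 0.277 and 0.0858 CPM at E11.5 and 9.92 and 4.12 CPM at E13.5 (call lost without E11.5 control replicate 2 (adjusted p up to 0.0658)), Slc17a7, a glutamate transporter of neurons, at 0.184 and 0.257 CPM at E11.5 and 9.08 and 5.33 CPM at E13.5, and Eef1a2, an elongation factor of muscle and neurons, at 0.369 and 0.772 CPM at E11.5 and 15.8 and 8.61 CPM at E13.5.

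Genes that respond to handling were uneven between libraries. Fos, an immediate early gene, was at 53.5 and 7.98 CPM at E11.5 and 4.59 and 70.9 CPM at E13.5, and Egr1, another, at 44.1 and 13.8 CPM at E11.5 and 30.98 and 91.9 CPM at E13.5. Each was high in 1 library of each stage, and neither was called (adjusted p = 0.896 and 0.434). Of 20 genes of this list 2 rose, below the share over all genes (20.4%), among them the heat shock gene Hspb1 (log2 fold change 1.49). Of 24 hypoxia and glycolysis genes, 11 rose and 1 fell (Gapdh, a glycolytic enzyme, log2 fold change -0.39). Ldha, lactate dehydrogenase, rose (log2 fold change 0.47), as did Pdk1, which limits pyruvate oxidation (log2 fold change 1.01), and Vegfa, the vessel growth factor (log2 fold change 0.48), the last with its call lost without E11.5 control replicate 2 or without either E13.5 control library (adjusted p up to 0.12). Whether these uneven levels bear on the stage changes was not tested.

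The mutant tracheae give the same stages in another genotype. Between E11.5 and E13.5, 6551 genes (47.6%) changed in the mutants, 3221 upwards (23.4%) and 3330 downwards (24.2%). Of the 5707 genes called in the controls, 5441 had the same sign in the mutants, 4270 were called with the same sign (31% of all genes tested, 74.8% of the controls' calls and 65.2% of the mutants') and 49 with the opposite sign. The stage effect itself differed between genotypes in 489 genes (3.55%), 253 more positive in the controls (1.84%) and 236 more negative (1.71%), and 267 of these 489 were among the controls' calls. With 1 library left out, the number ranged from 255 to 672. In the list counts, fibrous genes rose in 23 of 27 in the mutants, proliferation genes fell in 42 of 46, heterochronic genes in 16 of 19 and other erythroid genes in 21 of 23, with 1, 2, 3 and 1 differing between genotypes. Other lists had counts unlike those of the controls. Immune genes rose in 4 of 29 and fell in 3, against 17 and 0 in the controls. Neuronal genes rose in 9 of 25 and fell in 5, against 16 and 2. Endothelial genes fell in 19 of 26, against 8. Cardiac genes rose in 0 of 15, against 6, and skeletal muscle genes in 19 of 24, against 5. The neuronal and endothelial lists each held 1 gene whose stage effect differed, the other 3 lists 0.

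**Figure D4:**
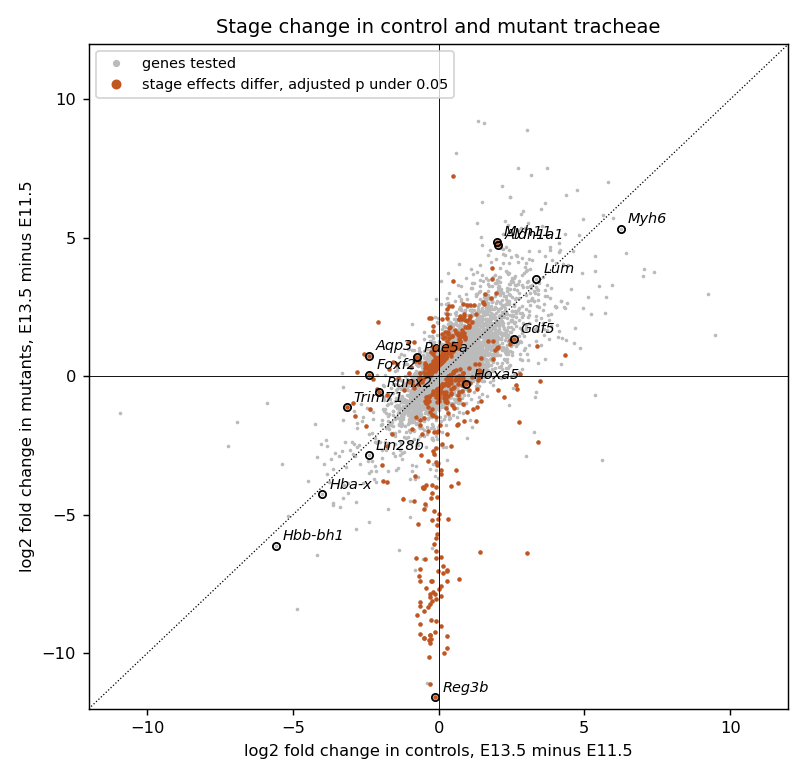
Log2 fold change from E11.5 to E13.5 of all 13763 genes, controls on the horizontal and mutants on the vertical axis; orange marks the 489 genes whose stage effect differed, the dotted line equal change, and named genes are circled. The column of orange points at no change in the controls holds genes that fell in the mutants alone, such as Reg3b.

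Of the 489 genes, 93 changed under 2-fold in the controls and fell at least 4-fold in the mutants. Of 24 intestinal genes tested, 1 rose and 0 fell in the controls by edgeR (0 lower by DESeq2, 1 at an unadjusted threshold of 0.05), while 22 fell in the mutants and 20 differed. Vil1, villin of intestinal microvilli, was at 4.79 and 3.95 CPM at E11.5 and 3.65 and 3.65 CPM at E13.5 in the controls (log2 fold change -0.26, adjusted p = 0.482) and at 6.58 and 5.55 CPM at E11.5 and 0.161 and 0.41 CPM at E13.5 in the mutants. Reg3b, a secreted lectin of the gut, was at 19.2 and 18.4 CPM at E11.5 and 18.7 and 16.003 CPM at E13.5 in the controls and at 27.03 and 33.5 CPM at E11.5 and 0 and 0 CPM at E13.5 in the mutants. Cdx2, the factor of intestinal identity, was low throughout, at 0.645 and 0.772 CPM at E11.5 and 0.468 and 1.03 CPM at E13.5 in the controls. The intestinal list's summed level was 150.3 and 133 CPM at E11.5 and 155 and 141 CPM at E13.5 in the controls and 185 and 186 CPM at E11.5 and 46.4 and 58.6 CPM at E13.5 in the mutants; the source of these transcripts was not tested. Of the listed gut genes, Enpep, a peptidase, was the 1 that rose in the controls (log2 fold change 0.81, adjusted p = 0.00386).

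In the tracheal wall, 9 of 26 smooth muscle genes and 9 of 30 epithelial identity genes tested differed, against 3.55% of all genes. Myh11 rose (log2 fold change 1.99) in the controls and in the mutants (4.86), a difference of -2.87 (SE 0.33, adjusted p = 0.0213). Cnn1 had log2 fold changes of 1.58 in the controls and 2.99 in the mutants (difference -1.42, adjusted p = 6.18e-04). Pde5a fell in the controls and had a log2 fold change of 0.70 in the mutants, where it was at 210.2 and 235 CPM at E11.5 and 318 and 403 CPM at E13.5 (difference -1.44, adjusted p = 0.00185). In all 3 genes the mutant value was the more positive. Foxf2 fell in the controls alone: in the mutants it was at 42.5 and 45.7 CPM at E11.5 and 46.6 and 45.4 CPM at E13.5 (difference -2.44, SE 0.18, adjusted p = 8.63e-06). Runx2 had a difference of -1.47 (adjusted p = 0.0187). Hoxa5 rose in the controls and was at 41.8 and 42.9 CPM at E11.5 and 31.3 and 38.2 CPM at E13.5 in the mutants (difference 1.24, SE 0.15, adjusted p = 0.001), and Gdf5 had log2 fold changes of 2.57 in the controls and 1.36 in the mutants (difference 1.21, adjusted p = 0.0494). With each of the 8 libraries left out in turn, the difference was called in 5 of 8 fits for Myh11 (adjusted p up to 0.126), in 4 of 8 for Runx2 (up to 0.109) and in 1 of 8 for Gdf5 (up to 0.252).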

How the data were processed

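RNA of dissected embryonic trachea was extracted with Trizol and made into Nextera XT libraries, which do not mark strand, per the labels' protocols. The submitters' processing notes list DESeq, Cufflinks 2.0.2, TopHat2 2.0.8 and Bowtie2 2.1.0 and the build mm9, without saying what each did. The authors deposited 1 table per stage with columns of counts and densities. Per the file headers the counts are raw, but 76.2% to 82.6% of the values are not whole, so they were treated as estimated counts and rounded. The deposited densities behaved as RPKM values (counts relative to gene length and column total) and served only to compare gene lengths between the tables.

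Tables were joined by gene ID and entries that share an Entrez ID were summed. Genes at 0 in all 4 columns of either table were left out; 70 entries missing in this way from the E11.5 table and 36 from the E13.5 table held at least 20 counts in the controls of the other stage, so a listing at 0 can come from the counting. Entries that name no gene held 0.000985% to 0.0253% of counts. Total counts were 9.9 to 18.48 M over the 8 libraries; as no molecular identifiers were used, each interval or floor covers counting error only. All 8 libraries were fitted as 4 group means with edgeR 4.0.16 in R 4.3.3 (filterByExpr, TMM factors, robust quasi-likelihood fit, biological coefficient of variation 7.23%), and the stage effect in controls, in mutants and their difference were tested with Benjamini-Hochberg adjustment. The fit was also run on simulated counts with known fold changes, the outcome of which is not given here. Correlations of same-numbered libraries' deviations were -0.062 to 0.042, so the replicate numbers do not pair samples. Alternatives covered scaling (upper-quartile, relative log expression), DESeq2 1.42.0, limma 3.58.1 with voom, filters, subsets of libraries, a replicate block, gene lengths and leaving out each library. The genes named are up to 6 per list and the 15 largest called changes in each direction among genes with a mean of at least 5 CPM in the higher stage, libraries that do not overlap and a symbol that is no predicted gene; some of these genes are not reported here, though list counts include them. The members and lists were chosen with earlier results of these data known. Sequences and let-7 matches come from RefSeq (GRCm38.p6) and GENCODE M21 (GRCm38); no mm9 coordinate was used.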

Additional observations from a re-analysis of the deposited data

Results flagged for a closer look

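For 26 named genes the stage effect differed between controls and mutants, tested as the control log2 fold change minus the mutant one with edgeR's quasi-likelihood test (adjusted p under 0.05 over 13763 genes, of which 3.55% were called). In the wall mesenchyme and its muscle these were Foxf2 with a difference of -2.44 (adjusted p = 8.63e-06), Myh11 -2.87, Cnn1 -1.42, Pde5a -1.44, Cald1 -0.77, Runx2 -1.47, Hoxa5 1.24 and Gdf5 1.21. In the epithelium they were Epcam with -0.49, Aqp3 with -3.13, Fgfr2 with -0.43 and Wnt7b with -0.80. Among signalling genes they were Aldh1a1 with -2.72, Wnt2 with -1.14, Wnt5a with 0.48 and Hhip with -0.94. Among growth genes they were Ccnd1 with 0.63, Btg2 with -0.76, Igf2 with 0.36, Hmga2 with 0.50 and Trim71 with -2.03. A negative difference means a more negative, or less positive, change in the controls.

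The remaining differences concern genes of gut and thyroid, with 11.47 for Reg3b, 6.58 for Cdx2, 4.12 for Vil1, 1.34 for Enpep and 2.50 for Tg. Those of Reg3b and Cdx2 rest on E13.5 mutant libraries at or near 0 (Reg3b at 0 and 0 CPM, Cdx2 at 0 and 0 CPM) and are fitted values, not bounds. With each of the 8 libraries left out in turn, 9 of the 26 were called every time, namely Aldh1a1, Btg2, Ccnd1, Cnn1, Foxf2, Hoxa5, Pde5a, Reg3b and Vil1. Gdf5 was the least stable, with a call in 1 of 8 such fits (adjusted p up to 0.252). Trim71 was at 6.54 and 6.95 CPM at E11.5 and 0.562 and 0.936 CPM at E13.5 in the controls and at 5.16 and 5.73 CPM at E11.5 and 2.21 and 2.81 CPM at E13.5 in the mutants, so it fell in both genotypes (mutant log2 fold change -1.12), and its difference was called in 5 of 8 such fits (adjusted p up to 0.104). Ccnd1 rose in the controls (0.32) and fell in the mutants (-0.32). Aldh1a1 was at 3.24 and 2.38 CPM at E11.5 and 81.4 and 69.8 CPM at E13.5 in the mutants, and at 3.32 and 2.57 CPM at E11.5 and 11.04 and 13.1 CPM at E13.5 in the controls. What lies behind these differences was not tested.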

How the results depend on the processing

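The number of genes called in the controls, 5707, lay between 4042 (DESeq2) and 6231 (genes of differing length kept) under the alternatives that use all 4 control libraries, and between 3870 and 4629 with 1 of them left out. Upper-quartile scaling shifted the median log2 fold change to 0.049 and turned the split from 2812 higher and 2895 lower into 3212 higher and 2279 lower. The replicate block gave 5564 calls in the controls, 6436 in the mutants and 469 differences, so the block did not move a count by over 1.5 times. The 489 differences between genotypes fell to 255 without E11.5 control replicate 1, 313 without E11.5 control replicate 2, 308 without E11.5 mutant replicate 1 and 261 without E13.5 control replicate 1, and were 672 without E13.5 mutant replicate 2. Of 200 named genes 165 were called in the controls, 121 of these in every alternative, and 0 called genes changed sign. Uncalled genes that changed sign were Fbn2 under upper-quartile scaling (0.034) and, under limma-voom, Alb (0.35), Cdx2 (-0.015) and Fos (-0.14). With 1 control library left out, the ranges that crossed 0 were -0.60 to 0.53 for Cdx2, -0.029 to 0.21 for Col2a1, -1.93 to 0.018 for Afp, -2.12 to 4.89 for Alb, -0.083 to 0.045 for Fbn2, -2.73 to 2.24 for Fos, -0.86 to 0.41 for Mpo, -0.86 to 0.36 for Foxj1, -0.34 to 0.65 for Nkx2-5 and -0.034 to 0.13 for Nr6a1. The cause of these changes was not tested. Depth limits the precision of genes under about 1 CPM, such as Cdx2 and Alb.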
